A study of Mus musculus with 3 samples.

Results

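The genes described here encode the cytoplasmic actins and the proteins that bind actin filaments or actin monomers. Of the 24063 genes in the deposited blastocyst table, 41 were chosen by symbol from a fixed list of such genes, and all 41 were found. RNA-Seq was performed on 3 libraries of mouse blastocysts, 1 from C57BL/6 (B6), the control strain, and 2 from NOD, an inbred strain that develops autoimmune diabetes. The embryos carried no transgene or targeted allele according to the labels, and no treatment was given. The labels describe whole blastocysts, whereas the study's methods describe single inner cell masses isolated by immunosurgery, and values are therefore given for blastocysts without assigning them to a lineage. The question was whether the low level of Actb in NOD blastocysts was shared by the other genes of actin filaments.

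Actin monomers assemble into polar filaments that grow at the barbed end and are taken apart from the pointed end. Profilin feeds monomers to growing ends, beta-thymosins hold monomers in reserve, cofilins sever old filaments, the Arp2/3 complex starts branches, capping protein stops growth, and myosin II, tropomyosins, alpha-actinins and filamin turn filaments into contractile or crosslinked arrays. In the preimplantation mouse embryo the cortical network of actin and myosin drives compaction, helps to place cells inside or outside, and underlies the tight epithelium of the trophectoderm that surrounds the blastocyst cavity.

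Each library was made by copying the RNA of very few cells into full-length cDNA (SMART-Seq) with 19 cycles of PCR, and the authors counted single-end reads of 50 bases on the exons of each gene. The total of the counts was 12505685 for B6, and it was 33891715 for NOD 1 and 36171013 for NOD 2. Levels are CPM, the counts put on a common library size, after scaling by edgeR's TMM factors, which correct for differences in library composition, and levels compared between genes are per kilobase of exon (FPKM). All differences are log2 fold changes of NOD minus B6. A gene was called lower or higher at an adjusted p under 0.05 (edgeR's quasi-likelihood test, Benjamini-Hochberg adjustment over the 14456 genes tested) and at least a 2-fold change. B6 has no replicate, so strain and the particular B6 library cannot be told apart, and the spread between samples comes from the NOD libraries alone. The methods describe single inner cell masses, but the labels do not say whether each library came from a separate embryo, so that p-values measure the spread between these samples, which may be technical. For a gene by itself, the smallest p that an exact permutation test allows with 1 library against 2 is 0.333, so that such a test cannot reach the threshold.

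All 41 genes were abundant enough to be tested. In NOD 9 were called lower, namely Actb, Gsn, Myh9, Tpm3, Actn1, Actn4, Ezr, Vasp and Lasp1. That is 22.0% of them, beside 7.39% of all genes tested. Since the low level of Actb was known when the genes were chosen, the share without it is given as well, 8 of 40 genes or 20.0%. The 4 called higher were Pfn2, Cap1, Capza2 and Myl12a, which is 9.76% of the 41 and near the background of 10.3%. The other 28 were not called in either direction. No gene of the table was called in limma-voom or without a filter on low counts, whereas 5763 genes had an unadjusted p under 0.05 in edgeR. Over all genes, 1069 were called lower and 1483 higher, against 1132 and 1037 with total counts only, under which 9 and 3 of the 41 genes were called. By level alone, 18 of the 41 were lower in both NOD libraries than in B6 (39.4% of all genes tested) and 21 were higher in both (45.3% of all genes tested), while Arpc5 and Actr2 had B6 between the NOD libraries. The median log2 fold change of the 41 genes was 0.11, against 0.26 for all genes tested, and it was 0.12 for the 40 genes without Actb. With total counts in place of TMM factors, the medians were -0.07 for the 41 genes and 0.07 for all genes tested. The large difference of Actb therefore stood beside genes that were lower, higher or near the B6 level.

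**Figure D1:**
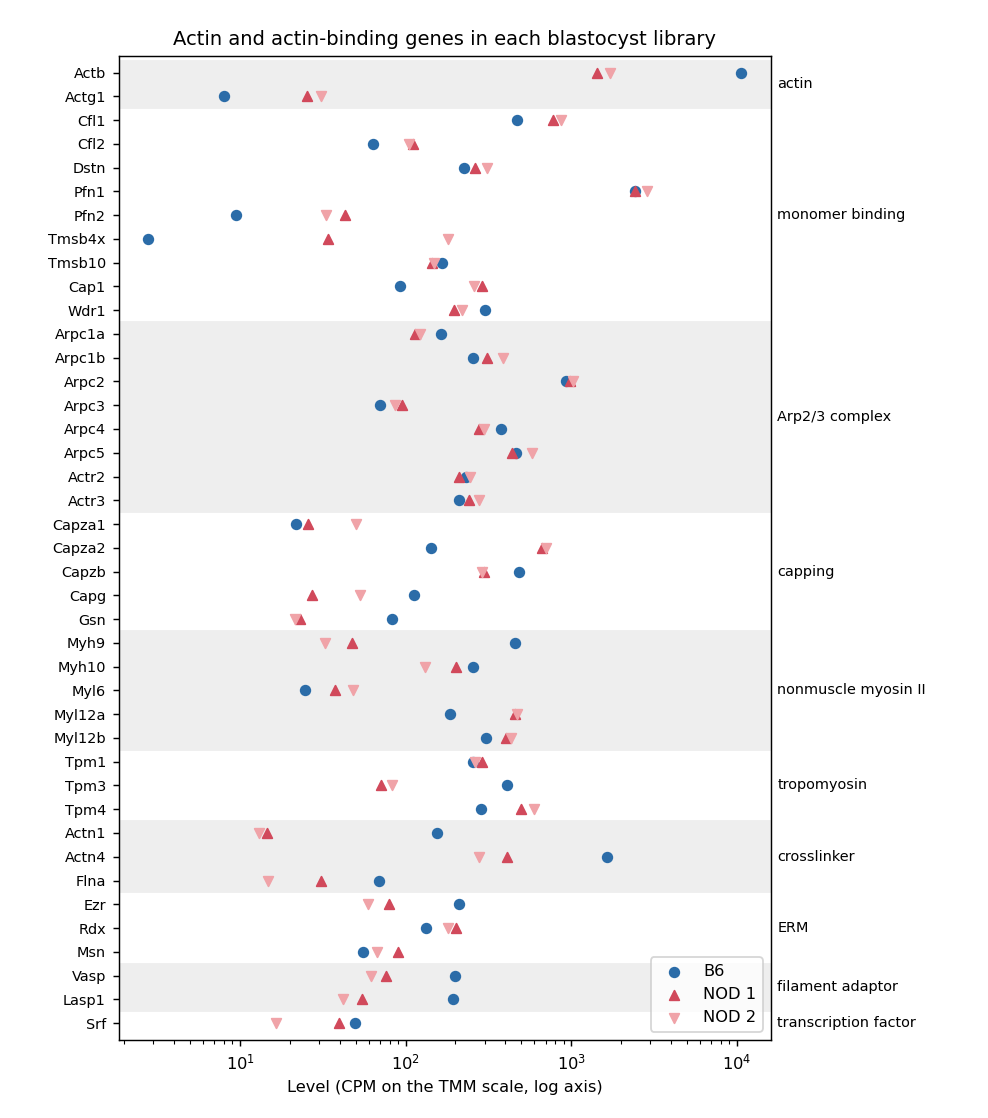
Level of each of the 41 genes in each library (CPM on the TMM scale, log axis), ordered by role, with a point for B6 and for each NOD library. Actb was at 10609 CPM in B6 and at 1429 and 1721 CPM in NOD. Pfn1, the next most abundant in B6 and the most abundant in NOD, was at 2432 CPM in B6 and at 2434 and 2863 CPM in NOD.

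Actb encodes beta-actin, the main actin of nonmuscle cells and a common reference gene. B6 had 144553 counts of it, against 47225 for NOD 1 and 58546 for NOD 2, which gives 10609, 1429 and 1721 CPM. The level of Actb RNA was thus far lower in both NOD libraries, which differed from each other by 1.20-fold. The mean of NOD was 1575 ± 206 CPM (SD, n = 2), 6.74-fold below B6 (log2 fold change -2.75, SE 0.17, adjusted p = 0.0190). By FPKM, Actb was at rank 1 among all genes in B6, at rank 106 in NOD 1 and at rank 75 in NOD 2. It held 1.16% of all counts in B6, against 0.139% and 0.162% in NOD. The gene lies on chromosome 5 (mm10, chr5:142903116-142906724, minus strand).

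Actg1 encodes gamma-actin, the other cytoplasmic actin, which differs from beta-actin in a few residues near the amino terminus. Its counts were 109 for B6, 834 for NOD 1 and 1043 for NOD 2, which gives 8.0, 25.2 and 30.7 CPM. As counted, Actg1 RNA was scarce in every library and lowest in B6, but many of its reads could also align elsewhere, and its level is uncertain. Its log2 fold change of 1.8 (SE 0.47) did not pass the threshold (adjusted p = 0.0606), although it did with a minimum count of 50 and in the DESeq2 test. Per kilobase, the counted level of Actb exceeded that of Actg1 by 1330-fold in B6, and by 56.8-fold and 56.3-fold in NOD 1 and NOD 2, with the same limit.

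Because the actins are so alike, the start of both coding sequences is shown (longest open reading frame of the GENCODE M21 transcripts that match the RefSeq entries of the table). Capitals mark the bases at which they differ.
Actb: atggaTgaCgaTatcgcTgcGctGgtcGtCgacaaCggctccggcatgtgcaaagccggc
Actg1: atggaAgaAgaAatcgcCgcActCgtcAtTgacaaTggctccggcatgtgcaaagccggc
Over the whole frame of 1128 bases the genes differ at 128, which leaves them 88.7% identical, and the longest identical stretch is 62 bases, longer than a read of 50 bases. Of the 50-base words of the Actg1 transcript, 56.7% also occur in transcripts of other genes, mostly pseudogenes, against 14.2% for Actb. The treatment of reads that align to several places is not given in the sources used here, and the level of Actg1 is uncertain for this reason. The muscle actins were at or near 0. Actc1 and Actg2 had 0 counts in every library, which allows up to 0.220 CPM for B6 (3 counts), 0.0908 for NOD 1 and 0.0882 for NOD 2. Acta1 had 3, 0 and 1 counts and Acta2 had 12, 8 and 12 counts in B6, NOD 1 and NOD 2. These floors cover counting error only, since reads amplified by PCR without molecular identifiers are not independent molecules.

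Summed over the 41 genes, the level was 22826 CPM for B6, 12474 for NOD 1 and 13675 for NOD 2. Most of this difference was Actb, which made up 46.5% of the sum in B6 and 11.5% and 12.6% of it in NOD. Without Actb the sums were 12217, 11045 and 11954 CPM, so that NOD 1 and NOD 2 had 0.904 and 0.978 of the B6 level. These ratios depend on the scaling, since all genes tested summed to 1.12 and 1.16 of B6 on the same scale. As a share of all counts, the 41 genes held 2.49% in B6 and 1.22% and 1.29% in NOD. Actb alone held 1.16%, 0.139% and 0.162%. Among the 9 genes called lower the sum went from 13971 CPM in B6 to 2207 and 2310 CPM, among the 4 called higher from 429.6 to 1458 and 1473 CPM, and among the 28 others from 8426 to 8808 and 9892 CPM. The calls themselves fixed the direction of the sums of the called genes. Actb made up 10609 of the 13971 CPM in B6.

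**Figure D2:**
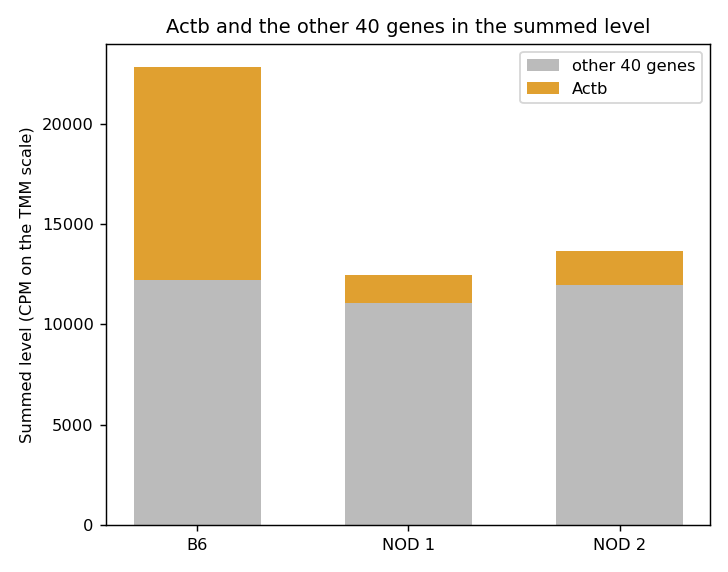
Summed level of the 41 genes in each library (CPM on the TMM scale), divided into Actb and the other 40 genes. The other 40 genes summed to 12217 CPM in B6 and to 11045 and 11954 CPM in NOD, while Actb was at 10609, 1429 and 1721 CPM.

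RNA of the genes whose proteins bind monomers or turn filaments over was mostly at or above the B6 level in NOD. Of these 9 genes none was called lower, 2 were called higher (22.2%, beside 10.3% of all genes tested), and 7 had higher values in both NOD libraries (77.8%, beside 45.3%). Pfn1, the main profilin, had 33130, 80435 and 97425 counts, or 2432, 2434 and 2863 CPM in B6, NOD 1 and NOD 2. Its levels were close in all libraries, with a log2 fold change of 0.12 (95% interval -0.36 to 0.60, adjusted p = 0.635) that became -0.065 with total counts only. Per kilobase, Actb was at 2.01 times the level of Pfn1 in B6 and at 0.270 and 0.276 times in NOD, so that profilin-1 and beta-actin changed places as the most abundant transcript of the 41. Pfn2, a second profilin that is best known from neurons, had 9.39 CPM in B6 and 43.2 and 33.2 CPM in NOD. It was called higher (log2 fold change 2.02, SE 0.46, adjusted p = 0.0466), but not with total counts only or with upper-quartile factors.

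Cap1, a cyclase-associated protein that recycles actin from cofilin back to profilin, had 1253, 9603 and 8855 counts in B6, NOD 1 and NOD 2. At 92.0 CPM in B6 and 291 and 260 CPM in NOD it was called higher (log2 fold change 1.58, SE 0.26, adjusted p = 0.0285). Its span overlaps Ppt1 on the opposite strand, and counts were made on both strands together, so reads of the overlap cannot be told apart. Ppt1 had 729, 4209 and 3917 counts in B6, NOD 1 and NOD 2. Wdr1, which works with cofilin in disassembly, was lower in both NOD libraries, with 303 CPM in B6 and 197 and 218 CPM in NOD, and was not called (adjusted p = 0.149).

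The cofilin family severs filaments. Cfl1, the nonmuscle cofilin, had 472, 779 and 865 CPM (log2 fold change 0.80, adjusted p = 0.0615), and Cfl2, the muscle cofilin, had 63.9, 110.6 and 105.1 CPM (0.76, adjusted p = 0.130). Both were above B6 in both NOD libraries without being called, and their ratio per kilobase stayed at 18.4, 17.5 and 20.5. Dstn, or destrin, had 224, 264 and 309 CPM (log2 fold change 0.35, adjusted p = 0.326).

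Among the 41 genes, the beta-thymosin Tmsb4x varied most between the NOD libraries and its relative Tmsb10 least. Tmsb4x was counted 38 times for B6, 1128 for NOD 1 and 6105 for NOD 2, or 2.79, 34.1 and 179 CPM. NOD 2 was 5.26-fold above NOD 1, more than for any other of the 41 genes. The log2 fold change of 5.26 (SE 1.31) was the highest of the 41 and did not pass the threshold (adjusted p = 0.0559), but it did with a minimum count of 50, in the DESeq2 test and with the dispersion estimated from abundant genes. Tmsb10 had 165, 145 and 148 CPM, so its levels were close (log2 fold change -0.17, 95% interval -0.81 to 0.47), although 43.5% of its 50-base words occur in other genes. In B6 Tmsb10 was 63.2-fold above Tmsb4x per kilobase, in NOD 1 it was 4.54-fold above, and in NOD 2 the ratio was 0.881.

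The Arp2/3 complex binds the side of a filament and starts a branch from it. None of its 8 genes was called, which for so few genes is near the background of 7.39% lower and 10.3% higher. Their summed level was 2702, 2676 and 3026 CPM in the order B6, NOD 1 and NOD 2. The log2 fold changes lay between -0.46 for Arpc1a and 0.45 for Arpc1b, with Arpc2 and Arpc5 changing sign to -0.074 and -0.052 with total counts only. The 95% intervals of the 8 genes reached from -1.13 at the lowest to 1.17 at the highest, so that a 2-fold change of some subunits cannot be told apart from none in these libraries. Arpc2, the most abundant subunit per kilobase in each library, had 12729, 32679 and 35074 counts, or 934, 989 and 1031 CPM. It forms the core of the complex with Arpc4, which had 375, 276 and 296 CPM. The actin-related subunits Actr2, with 232, 210 and 243 CPM, and Actr3, with 209, 240 and 278 CPM, form the base of the new filament. Their log2 fold changes were -0.03 and 0.31. Arpc3 was at 69.9, 95.2 and 86.4 CPM and Arpc5 at 463, 438 and 581 CPM.

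Arpc1a and Arpc1b are alternative forms of the same subunit and neighbours on chromosome 5 (chr5:145083869-145108756 and chr5:145114256-145128186). Arpc1a had 163 CPM in B6 and 114 and 122 CPM in NOD, while Arpc1b had 256 CPM in B6 and 312 and 388 CPM in NOD. The Arpc1b to Arpc1a ratio per kilobase was 1.61 in B6 and 2.79 and 3.25 in NOD, with neither gene called (adjusted p = 0.236 and 0.242). Of the Actr3 transcript, 49.8% of the 50-base words occur in other genes, which makes its level less certain. For Arpc1b the share was 42.2%, on a transcript of 3105 bases, whereas its counts cover 1539 bases. How far this share holds for the counted exons was not tested, so the level of Arpc1b is uncertain too.

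**Figure D3:**
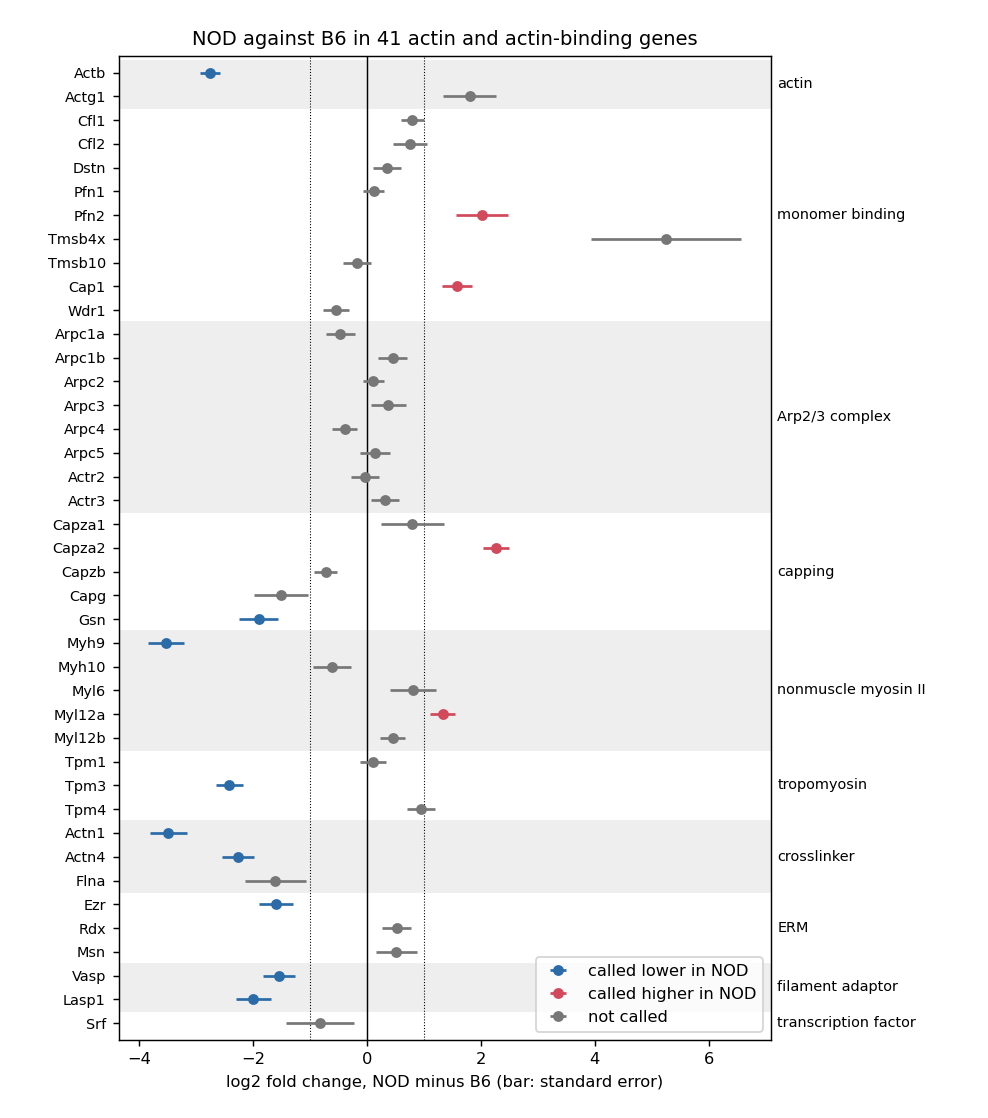
Log2 fold change of NOD minus B6 for each of the 41 genes, ordered by role, with the standard error as a bar and the 2-fold limits dotted. The 9 genes called lower are spread over actin, capping, myosin, tropomyosin, crosslinker, ERM and adaptor genes, while the 8 genes of the Arp2/3 complex lie between -0.46 and 0.45.

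Capping protein binds the barbed end as a pair of an alpha and a beta subunit. Capza2, an alpha subunit, was counted 1947 times for B6, 22042 for NOD 1 and 24036 for NOD 2, or 142.9, 667 and 706 CPM. It was the most strongly increased of the 4 genes called higher, at 4.81 times the B6 level (log2 fold change 2.26, SE 0.23, adjusted p = 0.0203), and shares no 50-base word with another gene. Capzb, its beta partner, was at 485 CPM in B6 and 298 and 289 CPM in NOD (log2 fold change -0.73, adjusted p = 0.0723), below B6 in both without being called. The Capza2 to Capzb ratio per kilobase was 0.265 in B6 and 2.01 and 2.2 in NOD. Capza1, the other alpha subunit, had 21.8, 25.6 and 50.2 CPM, and 77.4% of its 50-base words occur in other genes.

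The gelsolin family caps filaments too and, in the case of gelsolin, severs them in the presence of calcium. Gsn, or gelsolin, was counted 1134 times for B6, 766 for NOD 1 and 728 for NOD 2, or 83.2, 23.2 and 21.4 CPM. It was called lower, 3.73-fold (log2 fold change -1.90, SE 0.34, adjusted p = 0.0328). Capg, a relative that caps without severing, had 113, 27.1 and 52.8 CPM. Its lower levels in both NOD libraries did not pass the threshold (log2 fold change -1.50, adjusted p = 0.0877), and passed it with a minimum count of 50, in the DESeq2 test and with the dispersion estimated from abundant genes.

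Nonmuscle myosin II is made of heavy chains, which pull on filaments, and light chains. Myh9, the heavy chain of myosin IIA, was counted 6280 times for B6, 1575 for NOD 1 and 1103 for NOD 2, or 461, 47.7 and 32.4 CPM. Together with Actn1 it showed the largest decreases of the 41 genes, 11.5-fold for Myh9 (log2 fold change -3.53, SE 0.32, adjusted p = 0.0196). Myh10, the heavy chain of myosin IIB, had 254, 201 and 131 CPM and was not called (log2 fold change -0.61, adjusted p = 0.231). Per kilobase, Myh9 was at 1.90 times the level of Myh10 in B6 and at 0.248 and 0.258 times in NOD. The more abundant transcript of the pair was thus Myh9 in B6 and Myh10 in both NOD libraries.

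The 3 light chains were above B6 in both NOD libraries, as were 45.3% of all genes tested, and 1 of them was called. Myl12a, a regulatory light chain, had 2525, 15123 and 16098 counts, or 185, 458 and 473 CPM, and was called higher (log2 fold change 1.33, SE 0.23, adjusted p = 0.0303). Myl12b, a nearly identical regulatory light chain encoded next to it on chromosome 17, had 307, 404 and 435 CPM (log2 fold change 0.45, adjusted p = 0.193). Of their 50-base words, 29.6% of Myl12a and 11.4% of Myl12b occur in other genes, each other included, and the division of reads between them is uncertain. The words of Myl12b came from a transcript of 2143 bases, whereas its counts cover 933 bases. Myl6, the essential light chain, had 24.6, 37.5 and 48.3 CPM (log2 fold change 0.80, adjusted p = 0.203).

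Tropomyosins lie along the filament and set which other proteins can bind to it. Tpm3 was counted 5561 times for B6, 2347 for NOD 1 and 2797 for NOD 2, or 408, 71.0 and 82.2 CPM. It was called lower, 5.33-fold (log2 fold change -2.41, SE 0.24, adjusted p = 0.0197). Of its 50-base words, 59.8% also occur in other genes, chiefly Tpm3-rs7, so that this value may hold reads of another locus or lack some. Tpm4 had 285 CPM in B6 and 500 and 599 CPM in NOD, above B6 in both but not called (log2 fold change 0.95, adjusted p = 0.0576). Tpm1 had 256, 289 and 263 CPM, with a log2 fold change of 0.11 (95% interval -0.49 to 0.71) that became -0.077 with total counts only. Tpm3 was the most abundant tropomyosin per kilobase in B6 and the least abundant of the 3 in both NOD libraries, where Tpm4 exceeded it 7.61-fold and 7.88-fold, against a ratio of 0.754 in B6.

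**Figure D4:**
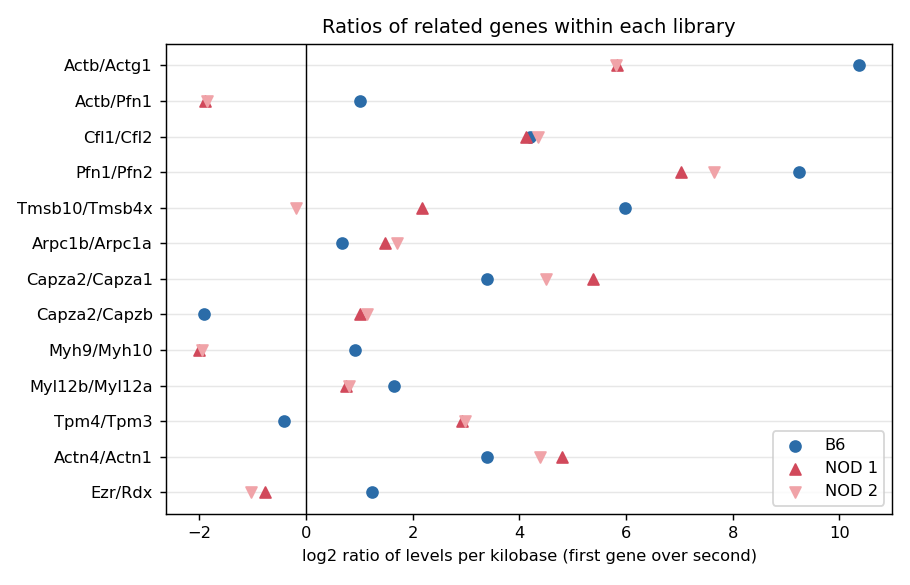
Log2 ratio of levels per kilobase for 13 pairs of related genes, with a point for B6 and for each NOD library. The ratios Actb/Pfn1, Myh9/Myh10 and Ezr/Rdx lie above 0 in B6 and below 0 in both NOD libraries, Capza2/Capzb and Tpm4/Tpm3 do the reverse, and Cfl1/Cfl2 is at 18.4, 17.5 and 20.5 on the linear scale.

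The 3 crosslinker genes had the lowest median log2 fold change of the groups, -2.26. All 3 were below B6 in both NOD libraries, as were 39.4% of all genes tested. Actn1 and Actn4 were called lower (66.7% of the 3, beside 7.39% of all genes tested). Actn1, an alpha-actinin that ties filaments together at adhesions, was counted 2105 times for B6, 481 for NOD 1 and 440 for NOD 2, or 154, 14.6 and 12.9 CPM, an 11.2-fold decrease (log2 fold change -3.49, SE 0.33, adjusted p = 0.0196). Actn4, the other nonmuscle alpha-actinin, had 22509, 13620 and 9444 counts, or 1652, 412 and 278 CPM, a 4.79-fold decrease (log2 fold change -2.26, SE 0.28, adjusted p = 0.0225). Both alpha-actinins fell, and Actn4 remained the more abundant in every library. Actn4 overlaps Capn12 on the opposite strand, and reads of the overlap cannot be told apart. Capn12 had 5426, 1853 and 1258 counts and was itself called lower (adjusted p = 0.0203). Flna, filamin A, which crosslinks filaments into loose networks, had 69.4 CPM in B6 and 30.9 and 14.7 CPM in NOD. It was below B6 in both libraries but was not called (log2 fold change -1.61, SE 0.53, adjusted p = 0.0946), except with a minimum count of 50 and in the DESeq2 test.

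The ERM proteins link filaments to the plasma membrane. Ezr, or ezrin, which marks the apical surface of epithelia and of the early embryo, was counted 2864 times for B6, 2623 for NOD 1 and 2018 for NOD 2, or 210, 79.4 and 59.3 CPM. It was called lower, 3.03-fold (log2 fold change -1.60, SE 0.30, adjusted p = 0.0354). Its relatives Rdx, or radixin, with 133, 202 and 181 CPM, and Msn, or moesin, with 55.0, 90.1 and 67.6 CPM, were above B6 in both NOD libraries and not called (log2 fold change 0.52 for each, adjusted p = 0.190 and 0.327). Ezr was at 2.35 times Rdx per kilobase in B6 and at 0.584 and 0.489 times in NOD.

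Both filament adaptor genes, a group of only 2, were called lower, beside 7.39% of all genes tested. Vasp, which protects growing barbed ends from capping, had 2725, 2512 and 2092 counts in B6, NOD 1 and NOD 2, or 200, 76.0 and 61.5 CPM (log2 fold change -1.54, SE 0.29, adjusted p = 0.0346). Lasp1, a LIM and SH3 domain protein of focal adhesions, had 2623, 1802 and 1422 counts, or 193, 54.5 and 41.8 CPM (log2 fold change -2.0, SE 0.31, adjusted p = 0.0261). In both genes the NOD libraries lay close together and well below B6.

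Srf, or serum response factor, is the transcription factor through which free actin monomers feed back on actin genes, and its cofactors of the myocardin-related family, Mkl1 and Mkl2, are released when monomers are used up. Srf was counted 676 times for B6, 1310 for NOD 1 and 559 for NOD 2, or 49.6, 39.6 and 16.4 CPM. The NOD libraries differed by 2.41-fold, more than NOD 1 differed from B6, and the gene was not called (log2 fold change -0.82, SE 0.60, adjusted p = 0.344). Mkl1 had 54.8, 16.2 and 5.20 CPM (log2 fold change -2.35, SE 0.71, adjusted p = 0.0791) and Mkl2 had 8.59, 3.75 and 3.50 CPM (-1.24, SE 0.67, adjusted p = 0.230). Mkl1 and Mkl2 were below B6 in both NOD libraries, as were 39.4% of all genes tested, and neither was called. Of the 5 listed Srf cofactors tested, 3 were below B6 in both NOD libraries, 1 was above B6 in both, and 1 was split.

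Srf binds the CArG box, and promoters that hold it are shown because Srf targets include actin genes. The box was searched on both strands in the 300 bases around each RefSeq start site (250 before, 50 after, GRCm38.p6) and occurred in 535 of 32851 promoters, or 1.63%. Entries were found for 40 of the 41 genes, with 47 promoters in all, and the promoter of Actb was not analysed here. Of these promoters 4 held a box, those of Actg1, Arpc4, Myl6 and Srf itself, none of which was called. None of the 11 promoters of the 8 genes called lower other than Actb held the letters of the box. With the box in only 1.63% of all promoters, its absence from so few was likely in any case. The part of Srf in these differences was not tested. The stretches around the boxes of Actg1 (chr11:120348546-120348615, minus strand) and Srf (chr17:46556185-46556274, minus strand) read as follows, with the box in capitals.
Actg1: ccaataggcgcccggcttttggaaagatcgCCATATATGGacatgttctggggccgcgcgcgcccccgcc
Srf: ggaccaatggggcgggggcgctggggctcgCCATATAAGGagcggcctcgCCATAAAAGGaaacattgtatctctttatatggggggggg
The box of Actg1 begins 90 bases before the start site, and those of Srf begin 82 and 62 bases before it. A match describes these letters and is not a measured binding site.

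Other genes of the pathway were read from a list of 122 genes of the table, of which 111 were tested. Of these 11 were called lower, or 9.91% beside 7.39% of all genes tested, and 3 were called higher, or 2.70% beside 10.3%. The median log2 fold change was -0.33. The counts lower and higher depended on the method. They were 22 and 11 with a minimum count of 50 (1722 and 2109 over all genes). In the DESeq2 test they were 26 and 12 (1936 and 2463 over all genes). The formins and other nucleators, which build unbranched filaments, had 5 of 13 tested genes called lower (Fmnl2, Fmnl3, Fhod1, Fhod3 and Inf2), none higher and a median of -1.07. Fhod3 had 54 counts in B6 and 0 in both NOD libraries and was at least 43.7-fold lower against a floor of 3 counts per library. It passed the filter on low counts only through the B6 library, where it was high, so that its call carries no weight of its own and 4 formins called lower remain without it. Fmnl3 was at 72.2 CPM in B6 and 13.9 and 6.29 CPM in NOD (log2 fold change -2.84, SE 0.56, adjusted p = 0.0373). Fhod1 was at 33.3, 4.60 and 7.38 CPM (-2.48, SE 0.51, adjusted p = 0.0408). In these formins both NOD libraries lay below B6. With upper-quartile factors Fmnl2, Fhod1, Fhod3 and Inf2 were no longer called, and Fhod3 was not called with total counts only or with the dispersion from abundant genes either.

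The bundling proteins Lcp1 (L-plastin), with 67.0, 10.3 and 6.97 CPM (log2 fold change -2.95, SE 0.43, adjusted p = 0.0244), and Vil1 (villin, of microvilli), with 15.2, 2.57 and 1.76 CPM (-2.81, SE 0.65, adjusted p = 0.0487), were also among the 5 largest decreases of the genes called. The others called lower were Limk2, Enah, Eps8l2 and Marcks. The 3 called higher were Wasf1, Tpm2 and Arpc5l. Wasf1, a WAVE protein that activates the Arp2/3 complex, was counted 1 time for B6, 364 for NOD 1 and 154 for NOD 2. NOD was at 105 times the B6 level, with an exact Clopper-Pearson interval (95%, counting error only) of 18.8 to 4164. It passed the filter on low counts only through the NOD libraries, where it was high, and 2 genes called higher remain without it. Tpm2 had 1.54, 13.6 and 18.2 CPM (log2 fold change 3.36, SE 0.67, adjusted p = 0.0381). Arpc5l, which can take the place of Arpc5 in the complex, had 151, 329 and 351 CPM (1.17, SE 0.24, adjusted p = 0.0393), against no call for Arpc5 and the 7 other subunits among the 41 genes. Vil1, Eps8l2, Marcks, Wasf1 and Arpc5l were not called with upper-quartile factors, Marcks and Arpc5l not with total counts only, and Vil1, Wasf1 and Tpm2 not with the dispersion from abundant genes.

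**Figure D5:**
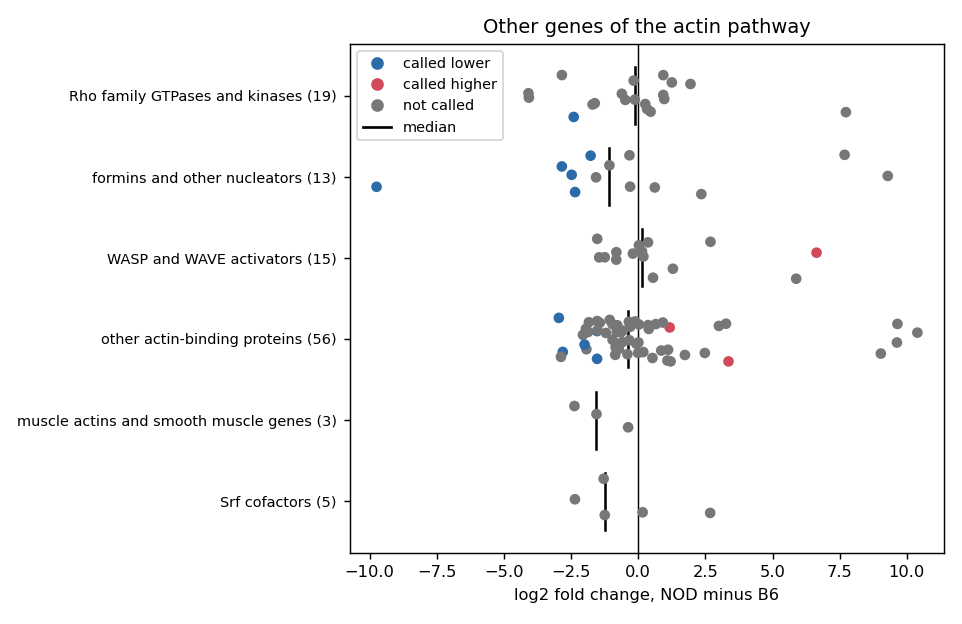
Log2 fold change of NOD minus B6 for the 111 other actin genes tested, by group, with the number of genes tested in parentheses, the median as a vertical line and the calls in color. Formins and other nucleators have 5 of 13 genes called lower and a median of -1.07, and the WASP and WAVE activators have none of 15 called lower, beside 7.39% of all genes tested. Fitted values of genes with 0 counts in a group, such as Fhod3 at the far left, depend on the prior count.

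Several measures moved together with these differences, and their part in them was not tested. Markers of the trophectoderm, the outer epithelium of the blastocyst, summed to 3574 CPM in B6 and to 2151 and 1864 CPM in NOD, that is to 0.602 and 0.522 of B6, with all 8 below B6 in both NOD libraries (39.4% of all genes tested) and none called. Epiblast markers summed to 433, 466 and 670 CPM and primitive endoderm markers to 763, 769 and 983 CPM. Some markers of each of the 3 lineages were thus detected in every library, although the methods describe inner cell masses. The epiblast and primitive endoderm sums held genes that moved in opposite directions. Sox2 (log2 fold change -2.70) and Gata6 (-1.80) were called lower, and Tdgf1 (4.75) and Pdgfra (2.13) were called higher. Most of the primitive endoderm sum came from Gata6 (385, 91.5 and 130 CPM) and Dab2 (371, 651 and 824 CPM). Sox17 had 0, 0 and 16 counts and Sox7 had 4, 13 and 0 in B6, NOD 1 and NOD 2. Fewer cells of a type and less RNA per cell cannot be told apart in such libraries. Markers of leukocytes, fibroblasts, cumulus cells and erythroid cells summed to at most 3.24 CPM in any library. Of 7 leukocyte, 5 fibroblast and 6 cumulus markers, 4, 3 and 4 had 0 counts throughout.

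Gene length moved with the differences as well. Over all genes tested, the median log2 fold change was 0.70 in the shortest quartile of genes by length and -0.32 in the longest, while the share called lower went from 4.87% to 10.4% and the share called higher from 15.2% to 4.79%. The 111 other actin genes had a median exon length of 3844 bases, against 2642 for all genes tested, and the 13 formins and other nucleators 4577, so that the values of these lists stand beside those of long genes in general. Among the 41 genes, those called lower had a median exon length of 3055 bases, those called higher 1994.5 and the others 1888.5. Spearman's correlation of exon length with log2 fold change was -0.38 over the 41 genes and -0.18 over all genes tested, a description across genes that share the same 3 libraries and are not independent. Actb, with 1881 bases, lies in the length quartile with a median log2 fold change of 0.55, and Myh9, with 7392 bases, in the longest quartile. Of the 9 genes called lower, Gsn and Vasp share no 50-base word with another gene, and 3 (Actb, Actn1 and Tpm3) share at least 10% of theirs.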

How the data were processed

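The deposited table holds raw counts, which the authors made by aligning reads to mm10 with STAR and counting them with HOMER over exons, keeping 1 RefSeq transcript for each gene, on both strands together and without normalization, per the labels, the methods and the file header. CASAVA 1.8.2, STAR 2.2.0c and edgeR are named in the submitters' processing notes, whereas the study's methods name a later STAR version. Exon length (bases) is also as deposited. Genes with all counts at 0 numbered 7298 of 24063. The members and gene lists were chosen with earlier results of these data known.

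Genes were filtered with filterByExpr (minimum count 10), and edgeR 4.0.16 (R 4.3.3) was run on all 3 libraries with TMM factors of 1.09, 0.975 and 0.941 for B6, NOD 1 and NOD 2, the trended dispersion and a quasi-likelihood F test without covariates. The median biological coefficient of variation was 0.374, with 1 residual and 3.78 prior degrees of freedom. The SE is the size of the change over the root of F, and 95% intervals use the t distribution on these degrees of freedom. FPKM was computed from CPM and the deposited length. The script was tested on simulated data. Every member was to be named, and of the other actin genes the 5 largest increases and decreases among those called, Mkl1, Mkl2 and the muscle actins. Limk2, Fmnl2, Inf2, Enah, Eps8l2, Marcks, Actn2 and Myl9 were named in addition, with their values known. Transcripts of GENCODE M21 were cut into 50-base words, and a word was shared where it occurred in another gene. These transcripts can be longer or shorter than the exons that were counted. Alternatives were other scalings and filters, DESeq2 1.42.0, limma-voom (limma 3.58.1) and leaving out either NOD library. ES cell data were not used here.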

Additional observations from a re-analysis of the deposited data

How the results depend on the processing

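Of the 13 called genes, 12 kept their call in each of 8 alternatives (other scalings, minimum count 50, robust edgeR, the DESeq2 test and the dispersion from abundant genes, the last chosen after seeing the data) and Pfn2 kept it in 6. Without a filter on low counts and with limma-voom (lowest adjusted p = 0.0501 over all genes) no gene was called, so that members called lower and higher were 0 and 0 and other actin genes 0 and 0, although 5763 genes had an unadjusted p under 0.05 in edgeR. The causes were not tested. Otherwise 9 to 11 members were lower and 3 to 6 higher. Other actin genes called lower, 11 in the report, were 4 with upper-quartile factors, 22 with minimum count 50, 26 with DESeq2 and 19 with the dispersion from abundant genes, and those called higher, 3 in the report, were 1, 11 and 12 under the first 3 of these. Over all genes, calls lower and higher were 1069 and 1483 in the report, 701 and 1016 with upper-quartile factors, 1722 and 2109 with minimum count 50, and 1936 and 2463 with DESeq2.

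With total counts only, the members' median became -0.074, the median of other actin genes -0.52 and the mean ratio of summed CPM 0.503. Log2 fold changes that changed sign there were Pfn1 -0.065, Arpc2 -0.074, Arpc5 -0.052, Tpm1 -0.077, Wasl -0.15, Nckap1 -0.043, Twf1 -0.16, Vcl -0.17 and Elk4 -0.037. With DESeq2 size factors these were Wasl -0.012, Twf1 -0.011 and Vcl -0.032, in the DESeq2 test Vcl -0.018, and in limma-voom Add2 -0.53, Vcl -0.054 and Elk4 -0.28. Coro1b became 0.0078 with upper-quartile factors, 0.022 without a filter and 0.0060 with minimum count 50. None of these genes was called. Leaving out either NOD library gave values without a test, with the members' median from 0.0013 to 0.142, the other actin median from -0.467 to -0.256 and the sum ratio from 0.546 to 0.599. Leaving out the B6 library leaves no comparison. No paired analysis was possible because B6 has 1 library. B6 was the shallowest library, so that its floor of 3 counts was the highest.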
